A study of Mus musculus with 8 samples.

Results

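Transcript levels of 9 regulatory genes of the phosphoinositide 3-kinase (PI3K) pathway were compared in activated mouse CD4 T cells. The cells were with and without cyclic AMP and with and without the receptor for IFN-γ. Lipids, phosphorylation and the activity of the pathway were not measured. The genes are Irs2, Pik3cd, Pik3r1, Pik3ip1, Inpp5d, Inpp4b, Akt1, Sgk1 and Tsc1. All probe sets annotated to one of these single symbols were taken, 25 of the 34945 probe sets with 1 symbol, and the one brightest on average across the 8 arrays served as each gene's main probe set. The 9 genes are among 18193 named genes, of which 12091 passed a filter on dim signals and were tested, and all 9 main probe sets passed it.

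CD4 T cells had been isolated by magnetic sorting from spleens of mice aged 8 weeks and stimulated for 15 h with antibodies to CD3 and CD28. The groups were IFN-gR1 KO cells with db-cAMP (dibutyryl cyclic AMP, which enters cells and mimics cyclic AMP), IFN-gR1 KO cells with vehicle, WT cells with db-cAMP and WT cells with vehicle, and db-cAMP or vehicle was present for the final 3 h. Each group had 2 arrays, titled as biological replicates, and all 4 groups share the stimulation, tissue and age. Whether replicates came from separate mice, and how the receptor gene was disrupted, is not stated, so p-values cover the spread between these samples alone, which may be technical. The labels call the KO mice deficient in IFN-gR1 and give no cell type to which the loss is limited. The free-text descriptions of the KO arrays call them WT, against their titles, source names and genotype entries.

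Class I PI3K produces the membrane lipid PIP3 after signals from the T cell receptor, CD28 and cytokine receptors. PIP3 recruits the kinases AKT and, through PDK1 and mTORC2, activates both AKT and SGK1, which restrain the FOXO transcription factors and relieve the TSC block on mTORC1. Lipid phosphatases such as SHIP1 and INPP4B remove the signal, and in T cells the pathway sets growth, metabolism and the exit from the quiescent, lymph node homing state.

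The annotated start sites of the 2 genes that rose with db-cAMP, Pik3r1 and Irs2, are shown because cyclic AMP acts on many genes through the cAMP response element. The 250 bases before each start are given 5′ to 3′ on the gene's strand, from RefSeq on GRCm38.p6, with motif matches in capitals. The motifs searched on both strands were the full element TGACGTCA, its core TGACG, which the full element also holds, and the FOXO element GTAAACA. Capitals in the second Pik3r1 sequence mark the core element read on the opposite strand, 35 to 31 bases before that start.
Pik3r1, first start, chr13:101768218-101768467, minus strand: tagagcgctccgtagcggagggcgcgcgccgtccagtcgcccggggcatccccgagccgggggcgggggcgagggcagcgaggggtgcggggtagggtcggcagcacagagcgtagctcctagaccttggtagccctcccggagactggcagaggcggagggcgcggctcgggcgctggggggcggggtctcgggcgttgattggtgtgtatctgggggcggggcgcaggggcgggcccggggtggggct
Pik3r1, second start, chr13:101692631-101692880, minus strand: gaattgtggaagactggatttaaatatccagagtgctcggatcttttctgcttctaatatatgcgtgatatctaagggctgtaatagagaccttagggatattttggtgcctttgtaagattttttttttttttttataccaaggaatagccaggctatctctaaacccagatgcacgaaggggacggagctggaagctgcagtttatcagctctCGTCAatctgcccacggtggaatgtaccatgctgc
Irs2, chr8:11008930-11009179, minus strand: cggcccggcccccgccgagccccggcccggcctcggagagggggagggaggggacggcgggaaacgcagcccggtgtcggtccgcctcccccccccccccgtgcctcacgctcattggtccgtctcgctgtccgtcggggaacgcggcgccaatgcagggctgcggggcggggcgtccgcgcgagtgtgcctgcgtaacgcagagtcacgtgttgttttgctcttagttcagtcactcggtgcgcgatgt
All 9 genes matched the promoter table, with 18 windows of 300 bases (250 before and 50 after the start). The full element was found in 0 of these windows, against 1.79% of all 32851 windows. The core element was found in 4 of the 18 windows, 1 each of Sgk1, Inpp5d, Pik3r1 and Tsc1, against 20.8% of all windows. The FOXO element was found in 1, at Akt1, against 3.65%. These are matches of letters and not binding sites.

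Replicates correlated at 0.961 to 0.977 across the genes tested, and median signals ran from 56.2 to 70.5. The 75th percentile of signals differed by genotype without overlap, at 338.4 to 357.7 on the KO arrays and 318.1 to 326.5 on the WT arrays. The T cell genes Cd3d and Cd5 gave signals of 19990 or more and 12820 or more on all 8 arrays, while Cd4 itself was dim, at 253 to 539. Cd3g, Cd3e and Thy1 gave at least 10220, 2197 and 2535. Summed over 2 markers each, CD8 T cell genes reached at most 516 and NK cell genes at most 160.5, and the 3 B cell markers summed to at most 399. The 5 macrophage and neutrophil markers summed to at most 465.7 and the 3 dendritic cell markers to at most 240.7. The 2 erythroid and platelet markers summed to at most 104.6. The targeted gene, Ifngr1, averaged 1164 ± 153 in KO and 7760 ± 624 in WT cells with db-cAMP, and 408 ± 43.5 in KO and 889 ± 22.4 in WT cells with vehicle (SD, n = 2 each). The position of its probe set with respect to the disruption is not known, so these levels do not check the genotype labels. The IFN-γ induced gene Gbp2 averaged 642 in KO and 25020 in WT cells with db-cAMP, and 432 in KO and 7532 in WT cells with vehicle. Control signals moved with both factors. The mean of 27 poly-A control probe sets was 3699 to 5188 on the KO arrays and 1283 to 1911 on the WT arrays. That of 18 hybridization control probe sets was lower on the KO arrays, at 14330 to 15860 against 18080 to 27170. The mean of 3 18S rRNA probe sets was 31400 to 38700 with db-cAMP and 24550 to 28570 with vehicle. Their part in the results below was not tested. In such bulk samples, fewer cells of a type and less RNA per cell cannot be told apart.

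Db-cAMP raised Pik3r1 and Irs2 in both genotypes and none of the other 7 genes passed on its main probe set in either. The Irs2 calls depended on single arrays and on the processing, as given below. Pik3r1 encodes p85α, the regulatory subunit that stabilises and restrains the PI3K catalytic subunits, and Irs2 encodes an adaptor that links insulin, IGF1 and some cytokine receptors to PI3K. In KO cells 2 of the 9 genes rose and 0 fell, while 8.38% of all genes tested changed, 4.7% higher and 3.68% lower. In WT cells 2 rose and 0 fell, while 35% of all genes changed, 16.4% higher and 18.6% lower. In limma, 0 members of the KO comparison and 1 of the WT comparison (Tsc1) were lower at an unadjusted p under 0.05. The median log2 change over the 9 genes was 0.24 in KO cells and 0.19 in WT cells, against -0.004 and 0.013 over all genes tested. Of all calls, 56.1% were rises in KO cells and 46.9% in WT cells, and with every array set to an equal 75th percentile these shares were 43.4% and 44.7%. A gene counts as changed at a Benjamini-Hochberg adjusted p under 0.05 from limma, adjusted over all 12091 genes, and log2 changes are on the log2(signal + 5.48) scale with the standard error of the fit.

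**Figure D1:**
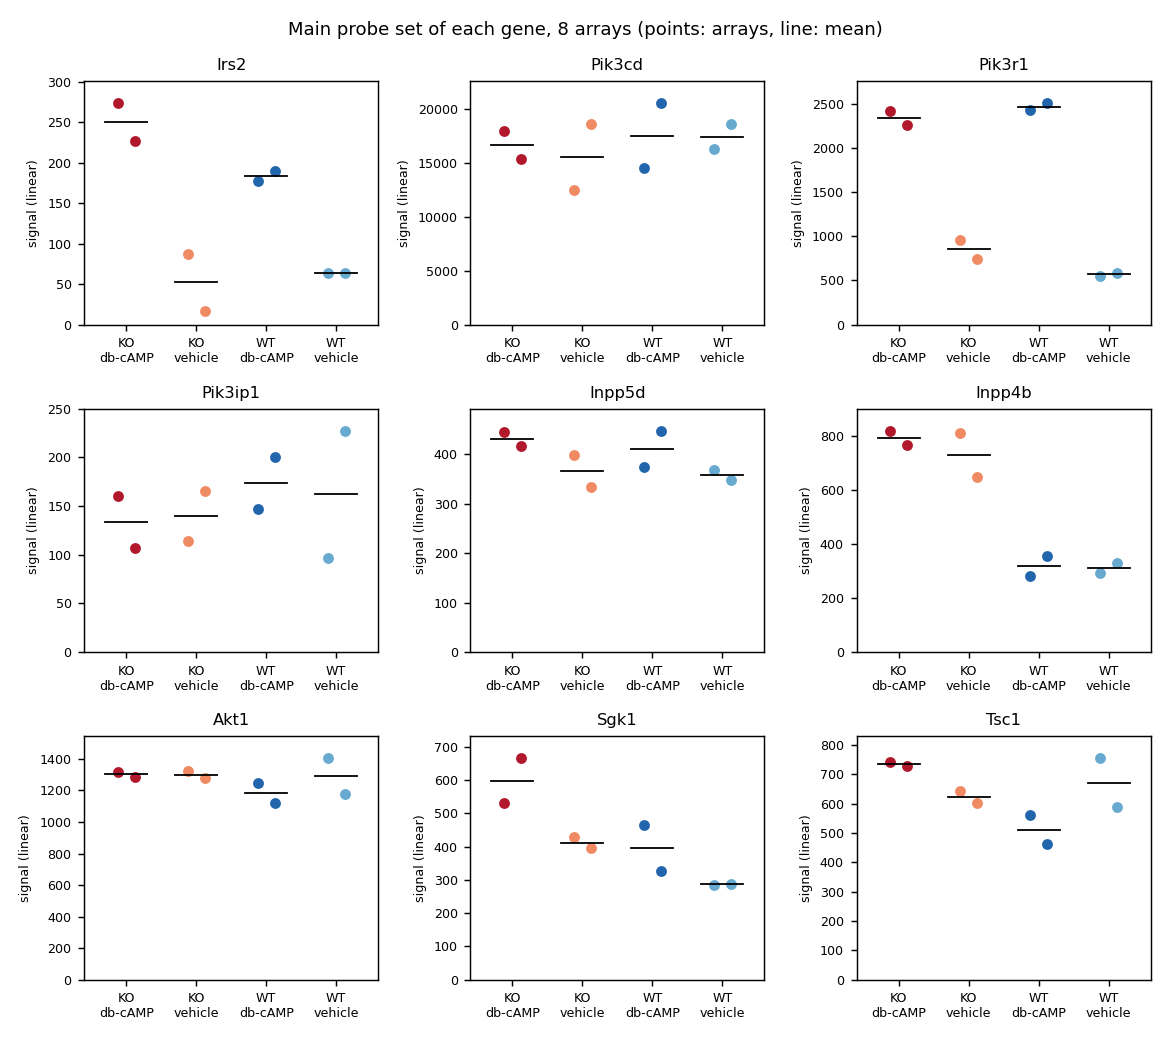
Linear signal (y axis, arbitrary units scaled per array, starting at 0) of the main probe set of each of the 9 genes on the 8 arrays, by group; points are arrays and lines are means of 2. Pik3r1 is at 2265 or more on the 4 db-cAMP arrays and at 961 or less on the 4 vehicle arrays, and Inpp4b is at 649 or more on the KO arrays and 355 or less on the WT arrays.

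Pik3r1 gave signals of 2422 and 2265 in KO cells with db-cAMP, against 961 and 745 in KO cells with vehicle. In WT cells it gave 2431 and 2510 with db-cAMP, against 552 and 586.5 with vehicle. The db-cAMP arrays were all far above the vehicle arrays, and with vehicle the WT arrays were the lowest. Its log2 change with db-cAMP was 1.46 ± 0.12 in KO cells, a 2.76-fold rise (adjusted p = 4.11e-06), and 2.11 ± 0.12 in WT cells, a 4.31-fold rise (adjusted p = 1.51e-08). The effect in KO cells was smaller than that in WT cells by a log2 difference of -0.64 ± 0.17 (adjusted p = 0.0236 for the interaction, which 11.8% of all genes passed, 6.7% with a higher and 5.09% with a lower effect in KO cells). Over the 9 genes the interaction passed for this 1, lower, and for 0 higher, where limma gave 1 at an unadjusted p under 0.05. With vehicle Pik3r1 was higher in KO than in WT cells by 0.57 ± 0.12 (853 ± 152 against 569 ± 24.3, SD, n = 2 each, adjusted p = 0.00761), and with db-cAMP the difference was -0.08 ± 0.12 (adjusted p = 0.686). These comparisons share arrays, so the higher KO vehicle level also enters the interaction.

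The other 3 Pik3r1 probe sets rose with db-cAMP as well. Tested among 21956 named probe sets, 1425514_at changed by 1.74 ± 0.22 in KO and 2.47 ± 0.22 in WT cells. Probe set 1425515_at changed by 1.09 ± 0.19 in KO and 1.82 ± 0.19 in WT cells, and 1451737_at by 1.45 ± 0.29 in KO and 2.24 ± 0.29 in WT cells, with adjusted p of 0.00918 or less for each of these 6 changes. All 4 probe sets moved the same way under db-cAMP, in each genotype. They differed in the comparison of genotypes. None of the 3 passed for KO against WT under vehicle, at 0.31, 0.34 and -0.05, and under db-cAMP the KO signal of 1451737_at was the lower one, at -0.84 ± 0.29 on the log2 scale (284 and 439 in KO, 631.5 and 638.5 in WT, adjusted p = 0.0469). Their interactions were -0.73, -0.73 and -0.78 and did not pass (adjusted p = 0.205, 0.119 and 0.305). As the mean of the 4 probe sets the KO against WT difference under vehicle was 0.29 (adjusted p = 0.365) and the interaction -0.72 (adjusted p = 0.102). Single arrays also decided these smaller calls. For the vehicle difference, adjusted p was 0.0796 with the first KO vehicle array left out and 0.051 with the first WT vehicle array left out. For the interaction it was 0.058 and 0.0996 without the first and the second KO db-cAMP array, 0.079 without the first KO vehicle array, 0.0689 without the second WT db-cAMP array and 0.0688 without the first WT vehicle array.

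**Figure D2:**
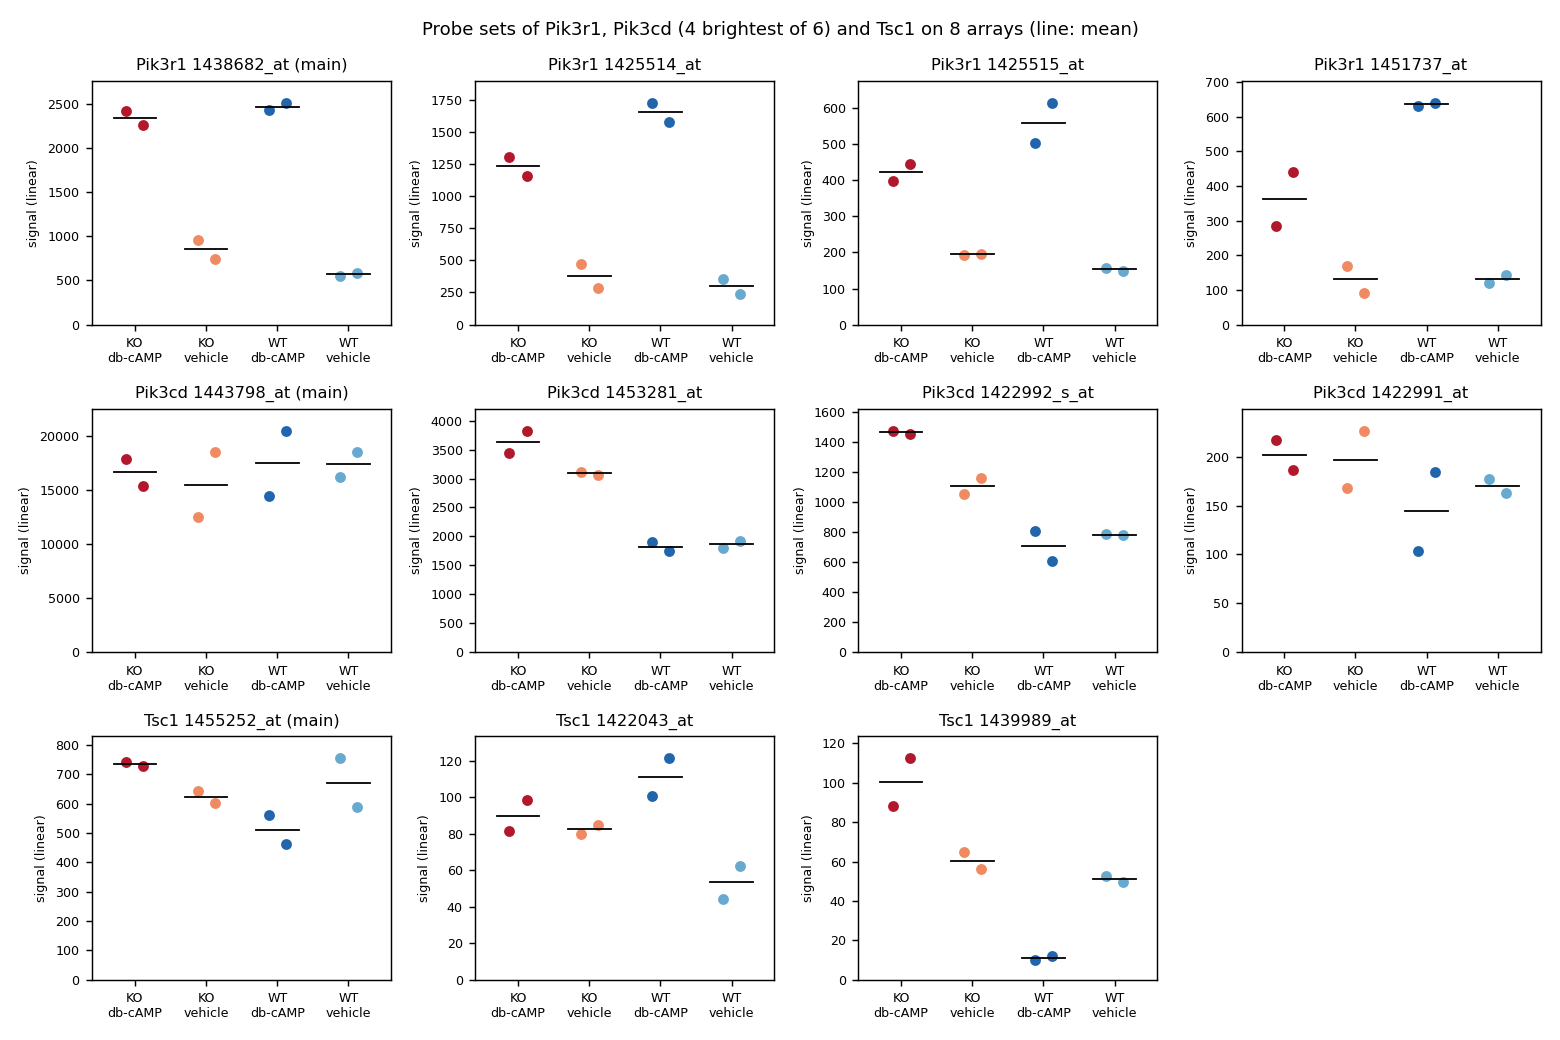
Linear signal (y axis, starting at 0) of the probe sets of Pik3r1, the 4 brightest of Pik3cd and the 3 of Tsc1 on the 8 arrays, by group; points are arrays and lines are means of 2. The 4 Pik3r1 probe sets share the rise with db-cAMP, while the main Pik3cd probe set overlaps between the genotypes and the 2 next brightest do not.

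Irs2 was measured by 1 probe set that was dim with vehicle. It gave 274 and 227 in KO cells with db-cAMP, against 87.4 and 16.8 with vehicle, and in WT cells 177 and 190 with db-cAMP, against 64.2 and 63.55 with vehicle. The db-cAMP arrays lay above the vehicle arrays without overlap in both genotypes, and the KO vehicle arrays stood far apart from each other, the second at 16.8 against an array median of 57.7. The log2 change was 2.48 ± 0.52 in KO cells (5.59-fold, adjusted p = 0.0094) and 1.45 ± 0.52 in WT cells (2.73-fold, adjusted p = 0.0469). The interaction was 1.04 ± 0.74 (adjusted p = 0.449), and KO against WT differed by 0.43 ± 0.52 under db-cAMP (adjusted p = 0.597) and -0.61 ± 0.52 under vehicle (adjusted p = 0.558). The size of the KO change rests on that dim value. In the test over all named probe sets the WT change did not pass (adjusted p = 0.0553). It was also lost with log2(signal + 1) (adjusted p = 0.0607), with no filter (0.0843) and after quantile normalization (0.0526). The same held without the intensity trend (0.159) and with the mean of probe sets (0.0773). The KO change did not pass without the trend (adjusted p = 0.149). The calls of Irs2 depended on single arrays. The WT call was lost without any 1 of the WT arrays (adjusted p = 0.111 and 0.144 without the first and the second db-cAMP array, 0.122 and 0.121 without the first and the second vehicle array) or of the KO db-cAMP arrays (0.0743 and 0.072). The KO call was lost without KO vehicle replicate 2, where the change was 1.455 (adjusted p = 0.0536), and without the first (0.0981) or the second (0.063) KO db-cAMP array. Without KO vehicle replicate 1 Irs2 was lower in KO than WT cells under vehicle, at -1.637 (adjusted p = 0.0492), and its interaction was 2.07 (adjusted p = 0.0365).

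The catalytic subunit and the inhibitor of the kinase showed no call on their main probe sets. Pik3cd encodes p110δ, the leukocyte catalytic subunit, and its main probe set gave 17950 and 15390 in KO cells with db-cAMP and 12490 and 18550 with vehicle, against 14480 and 20520 in WT cells with db-cAMP and 16260 and 18570 with vehicle. All 4 groups overlapped. The 95% interval of its log2 change with db-cAMP was -0.24 to 0.50 in KO cells and -0.38 to 0.36 in WT cells. The next brightest probe sets of Pik3cd read differently between genotypes. Probe set 1453281_at gave 3448 and 3825 in KO cells and 1902 and 1740 in WT cells with db-cAMP, and 3107 and 3068 in KO cells and 1801 and 1924 in WT cells with vehicle. All its KO arrays were above all its WT arrays. Its KO against WT change was 0.995 ± 0.089 under db-cAMP (adjusted p = 4.44e-06) and 0.73 ± 0.09 under vehicle (adjusted p = 0.000167). For 1422992_s_at these changes were 1.06 ± 0.13 (adjusted p = 6.55e-05) and 0.49 ± 0.13 (adjusted p = 0.0288). The dimmer probe sets 1422991_at and 1446770_at did not pass for KO against WT. They stood at 0.525 and 0.343 under db-cAMP and at 0.189 and 0.276 under vehicle. The main probe set alone leaned the other way, at -0.053 under db-cAMP and -0.191 under vehicle. The probe sets of Pik3cd disagree, so no direction between genotypes is given for the gene. Of its 6 probe sets 5 passed the filter.

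Pik3ip1 encodes a transmembrane protein that binds PI3K and holds it back, and T cells lose it on activation. It gave 160 and 107 in KO cells with db-cAMP, 114 and 165 in KO cells with vehicle, 147 and 201 in WT cells with db-cAMP and 96.9 and 227 in WT cells with vehicle. The groups overlapped throughout, and the WT vehicle arrays alone spanned the whole range. With db-cAMP it changed by -0.06 ± 0.39 in KO cells (adjusted p = 0.962) and 0.199 ± 0.391 in WT cells (adjusted p = 0.742), with 95% intervals of -0.91 to 0.78 and -0.646 to 1.043. Its second probe set also did not pass in any of the 5 comparisons.

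Of the lipid phosphatases, Inpp4b was higher in KO cells under both treatments and Inpp5d passed in no comparison. Inpp4b encodes the phosphatase that removes the 4-phosphate from PI(3,4)P2. Its main probe set gave 819 and 766 in KO cells and 282 and 355 in WT cells with db-cAMP, and 810 and 649 in KO cells and 294 and 330 in WT cells with vehicle. The genotypes did not overlap, and within each genotype the treatments did. KO against WT changed by 1.31 ± 0.16 under db-cAMP (2.47-fold, adjusted p = 5.01e-05) and 1.20 ± 0.16 under vehicle (2.3-fold, adjusted p = 0.000416). With db-cAMP against vehicle it stood at 0.13 ± 0.16 in KO (adjusted p = 0.757) and 0.02 ± 0.16 in WT cells (adjusted p = 0.931). A second, dimmer probe set (39.3 to 129 over the 8 arrays) did not pass in any comparison, at 0.74 ± 0.53 under db-cAMP and -0.07 ± 0.53 under vehicle for KO against WT. The mean of both probe sets did not pass under vehicle (0.57, adjusted p = 0.256). The higher Inpp4b signal in KO cells was beside the higher poly-A controls and the lower hybridization controls of those arrays given above.

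Inpp5d encodes SHIP1, the blood cell phosphatase that removes the 5-phosphate of PIP3. It averaged 431 ± 20.5 in KO cells with db-cAMP and 366 ± 45.4 with vehicle, and 411 ± 51.1 in WT cells with db-cAMP and 357.5 ± 13.8 with vehicle (SD, n = 2 each). The arrays with db-cAMP lay above those with vehicle in each genotype by less than the test could call, with log2 changes of 0.24 ± 0.17 in KO (adjusted p = 0.49) and 0.19 ± 0.17 in WT cells (adjusted p = 0.411). Its second probe set leaned the other way, at -0.31 ± 0.37 and -0.14 ± 0.37.

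Among the kinases, Sgk1 was higher in KO cells under db-cAMP and Akt1 passed in no comparison. SGK1 is a kinase related to AKT that mTORC2 activates and that controls sodium transporters and, in T helper cells, lineage choice. It gave 532 and 665 in KO and 465 and 328 in WT cells with db-cAMP, and 428 and 395 in KO and 285.5 and 287.5 in WT cells with vehicle. Both KO groups lay above the WT group of the same treatment, both db-cAMP groups lay above the vehicle group of the same genotype, and only KO vehicle and WT db-cAMP, which are neighbours in the order of the 4 levels, overlapped. KO against WT changed by 0.60 ± 0.19 under db-cAMP (adjusted p = 0.0268) and 0.51 ± 0.19 under vehicle (adjusted p = 0.108), and db-cAMP against vehicle by 0.53 ± 0.19 in KO (adjusted p = 0.113) and 0.44 ± 0.19 in WT cells (adjusted p = 0.0886). Fitted to the 4 KO arrays alone, the change in KO cells passed (0.53, adjusted p = 0.044). Leaving out the second KO db-cAMP array ended the call of KO against WT under db-cAMP (0.44, adjusted p = 0.241), as did leaving out the second WT db-cAMP array (0.35, adjusted p = 0.226). It also did not pass after quantile normalization (adjusted p = 0.0731) or with an equal 75th percentile (adjusted p = 0.0701). Without WT db-cAMP replicate 2 the WT change with db-cAMP passed at 0.69 (adjusted p = 0.0171). Sgk1 lies on chromosome 10, as does the targeted Ifngr1, with 14 protein-coding genes starting between them in the RefSeq table, and the other 8 genes lie on other chromosomes.

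Akt1 encodes the AKT kinase best known for growth and survival signals. It averaged 1301 ± 25.5 in KO and 1184 ± 88.8 in WT cells with db-cAMP, and 1299 ± 29 in KO and 1291 ± 158 in WT cells with vehicle (SD, n = 2 each). Its log2 change with db-cAMP was 0.002 ± 0.108 in KO cells, with a 95% interval of -0.23 to 0.24, and -0.12 ± 0.11 in WT cells, with an interval of -0.35 to 0.11. Of its 4 probe sets 3 passed the filter, and 0 of them passed limma's test in any of the 5 comparisons.

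Tsc1 encodes hamartin, the scaffold of the TSC complex that keeps mTORC1 off and preserves T cell quiescence. It gave 742 and 728 in KO and 561 and 462.5 in WT cells with db-cAMP, and 644 and 602 in KO and 754.5 and 589 in WT cells with vehicle. Under db-cAMP the KO arrays were the higher ones without overlap, and under vehicle the genotypes overlapped. KO against WT changed by 0.52 ± 0.15 under db-cAMP (adjusted p = 0.0166) and by -0.10 ± 0.15 under vehicle (adjusted p = 0.777). With db-cAMP against vehicle it stood at 0.24 ± 0.15 in KO cells (adjusted p = 0.425) and -0.38 ± 0.15 in WT cells (adjusted p = 0.0612), and the interaction was 0.62 ± 0.21 (adjusted p = 0.0772). The probe sets disagreed in part. Probe set 1422043_at stood at -0.29 ± 0.40 for KO against WT under db-cAMP (adjusted p = 0.66) and, for db-cAMP against vehicle, at 0.11 ± 0.40 in KO (adjusted p = 0.936) and 0.99 ± 0.40 in WT cells (adjusted p = 0.0842), the opposite sign to the main probe set in WT cells. The dim probe set 1439989_at gave 88.1 and 112 in KO and 10.3 and 11.95 in WT cells with db-cAMP, and 64.8 and 56 in KO and 52.7 and 49.5 in WT cells with vehicle. It was above the array median on 3 arrays, all of KO cells, and thus passed the filter through the KO groups alone. Its WT db-cAMP signals lay far below the medians of those arrays, 64.65 and 70.5, so no change or test is given for it. The KO against WT call on the main probe set was lost without the first (adjusted p = 0.0885) or the second (0.0755) KO db-cAMP array, without the second WT db-cAMP array (0.128), after quantile normalization (0.0645) and with an equal 75th percentile (0.0636). In turn the WT change with db-cAMP passed without the second WT vehicle array (-0.56, adjusted p = 0.0216) or the first WT db-cAMP array (-0.523, adjusted p = 0.0346), and the interaction passed without the same arrays (0.798, adjusted p = 0.0343, and 0.76, adjusted p = 0.046).

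Set side by side, 3 of the 9 genes were higher and 0 lower in KO than WT cells under db-cAMP (Inpp4b, Sgk1 and Tsc1), while 29.2% of all genes tested changed, 15.9% higher and 13.3% lower. Under vehicle 2 were higher and 0 lower (Inpp4b and Pik3r1), while 10.8% changed, 5.06% higher and 5.78% lower. At an unadjusted p under 0.05 limma gave 0 lower genes in either. Of all calls, 54.6% were higher in KO cells under db-cAMP and 46.7% under vehicle, and with an equal 75th percentile these shares were 37.8% and 25.3%. That scaling put the median of all genes at -0.128 and -0.098 in these comparisons, against -0.005 in both as deposited. Inpp4b passed as higher in KO cells under both treatments with the deposited scaling, an equal 75th percentile and quantile normalization, while Sgk1 and Tsc1 passed with the deposited scaling alone. Beside these differences, the 2 CD8 T cell markers summed to 269.8 to 275.9 in KO and 366.6 to 432.8 in WT cells with db-cAMP, and to 290.4 to 335.3 in KO and 498.8 to 516.3 in WT cells with vehicle. The sums differed mainly through Cd8b1, at 150 and 139.5 in KO and 256 and 291 in WT cells with db-cAMP. With vehicle it gave 176 and 205 in KO and 362 and 367 in WT cells. Cd8a gave 126 and 130 in KO and 110 and 141 in WT cells with db-cAMP. With vehicle Cd8a gave 114 and 130.5 in KO and 137 and 150 in WT cells. The part of these markers was not tested.

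**Figure D3:**
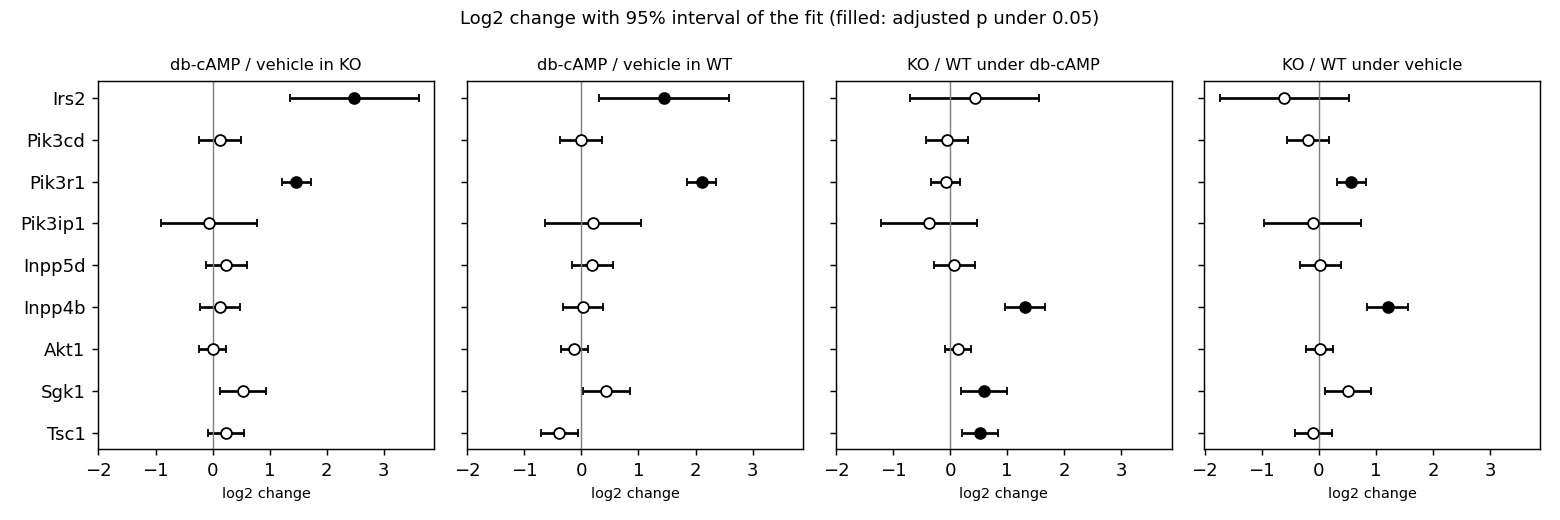
Log2 change (x axis, log2 scale) of the main probe set of each of the 9 genes in 4 comparisons, with the 95% interval of the limma fit; filled points have an adjusted p under 0.05. Pik3r1 and Irs2 are filled in both db-cAMP panels, and Inpp4b in both panels of KO against WT.

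Genes with array profiles most like those of the 3 members with the largest mean effect of db-cAMP were taken from all genes tested, over the 8 arrays. The arrays fall into 4 groups, and the correlations are given as a description. The profile of Pik3r1 was closest to those of Sik1 (Pearson r = 0.996), a salt-inducible kinase whose gene is a classical cAMP target, Satb1 (r = 0.993), a chromatin organiser, and Stat3 (r = 0.993), a cytokine-activated transcription factor. Sik1 changed by 0.90 in KO (adjusted p = 0.0165) and 1.41 in WT cells (adjusted p = 0.000117) with db-cAMP. For Irs2 the closest were Smc3 (r = 0.983), Nadsyn1 (r = 0.973) and Marf1 (r = 0.973). Marf1 passed for db-cAMP in KO (0.62, adjusted p = 0.0211) and WT cells (0.58, adjusted p = 0.00759), and Smc3 and Nadsyn1 in neither. For Sgk1 the closest were Usp4 (r = 0.987), Virma (r = 0.973) and 2700049A03Rik (r = 0.965), none of which passed for db-cAMP in either genotype.

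Other genes of the pathway were taken from 6 lists, 78 genes in all, whose members were chosen with earlier results known. Among PI3K subunits and adaptors, of 12 tested the KO cells had 1 rise and 0 falls, against 3 rises and 1 fall in WT cells, close to the shares of all genes that changed, 8.38% in KO and 35% in WT cells. Cblb, a ubiquitin ligase that limits PI3K recruitment to CD28, averaged 6703 ± 124.5 with db-cAMP and 3018 ± 34.3 with vehicle in KO cells, and 6701 ± 210 and 3108 ± 79.1 in WT cells (SD, n = 2 each). Its log2 change was 1.15 ± 0.07 in KO (adjusted p = 5.27e-07) and 1.11 ± 0.07 in WT cells (adjusted p = 4.85e-08). Pik3r5, which encodes the p101 partner of p110γ, rose by 0.83 in WT cells (adjusted p = 0.00112), and Pik3r2, which encodes p85β, the closest relative of p85α, fell to 54.9 ± 36 with db-cAMP, against 129 ± 15.3 with vehicle (log2 -1.29 ± 0.43, adjusted p = 0.0313). Pik3r2 was dim in WT cells with db-cAMP, at 29.4 and 80.4, where the array medians were 64.65 and 70.5. In KO cells Pik3r2 stood at -0.23 (adjusted p = 0.844) and Pik3r5 at 0.39 (adjusted p = 0.183). Neither interaction passed (adjusted p = 0.321 for Pik3r2 and 0.268 for Pik3r5). The median change of this list was -0.015 in KO and 0.188 in WT cells.

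Phosphatases of the pathway that rose included Phlpp1, which removes the activating phosphate of AKT's hydrophobic motif. It averaged 1018 ± 60.7 with db-cAMP and 420 ± 51.9 with vehicle in KO cells, and 1724 ± 21.4 and 314 ± 14.5 in WT cells (SD, n = 2 each), log2 changes of 1.27 ± 0.13 (adjusted p = 3.19e-05) and 2.44 ± 0.13 (adjusted p = 8.1e-09). The effect in KO cells was smaller by -1.17 ± 0.18 (adjusted p = 0.000972). Mtmr6, a myotubularin phosphatase, rose by 0.63 in KO and 1.23 in WT cells, Phlpp2 by 0.69 in KO cells and Inpp5k by 0.89 in WT cells. Phlpp2 stood at 0.03 in WT cells (adjusted p = 0.924) and Inpp5k at 0.33 in KO cells (adjusted p = 0.166). The interactions of Phlpp2 and Inpp5k did not pass (adjusted p = 0.123 and 0.0719). Of 10 tested, KO cells had 3 rises and 0 falls, and WT cells 4 rises and 1 fall, which was Mtm1 at -0.63, where 8.38% of all genes changed in KO and 35% in WT cells. In KO cells 1 was lower at an unadjusted p under 0.05 in limma. The list medians were 0.23 and 0.31.

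Among AKT and SGK family kinases and their activators, 2 of 9, Rictor and Pdpk1, rose in KO and in WT cells, where 4.7% of all genes rose in KO and 16.4% in WT cells. Rictor, the defining subunit of mTORC2, rose by 0.62 ± 0.14 in KO (adjusted p = 0.0137) and 0.88 ± 0.14 in WT cells (adjusted p = 0.000228). Pdpk1, which encodes PDK1, rose by 0.496 ± 0.097 in KO (adjusted p = 0.00597) and 0.542 ± 0.097 in WT cells (adjusted p = 0.000616). In limma 0 fell, and 0 in KO and 1 in WT cells were lower at an unadjusted p under 0.05. The list medians were 0.051 and -0.015.

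In the TSC and mTORC1 list, KO cells had 3 rises and 0 falls among 17 tested, and WT cells 3 rises and 3 falls. Over all genes 8.38% changed in KO and 35% in WT cells, and the WT count is at that background. Sesn3, a sestrin that restrains mTORC1 and is a FOXO target in mouse cells, rose by 1.11 ± 0.11 in KO (3711 ± 398 with db-cAMP, 1722 ± 204 with vehicle, adjusted p = 2.87e-05) and 1.69 ± 0.11 in WT cells (5196 ± 48.5 and 1617 ± 194, adjusted p = 5.89e-08). Ddit4, which encodes the mTORC1 inhibitor REDD1, rose by 0.36 ± 0.09 in KO (adjusted p = 0.0334) and 1.09 ± 0.09 in WT cells (adjusted p = 9.48e-07). The effects in KO cells were smaller than in WT cells, by -0.58 for Sesn3 (adjusted p = 0.027) and -0.73 for Ddit4 (adjusted p = 0.00293). Rragd, a Rag GTPase that carries the amino acid signal to mTORC1, was among the 3 WT falls. It gave 60.6 and 37.6 in WT cells with db-cAMP, against 120 and 151 with vehicle. These db-cAMP signals lay below the medians of their arrays, 64.65 and 70.5. Rragd thus passed the filter only through the groups where it was higher, and its change and test are not given. Sesn1 rose by 0.68 in KO cells (adjusted p = 0.0151). The other WT calls included a rise of Rheb, which switches mTORC1 on, by 0.53 (adjusted p = 5.73e-05). Tbc1d7 and Eif4ebp1 fell in WT cells, with log2 changes of -0.995 (adjusted p = 0.00182) and -0.305 (adjusted p = 0.0199). Rheb, Tbc1d7 and Eif4ebp1 did not pass in KO cells. The interaction passed for Rheb (adjusted p = 0.00541) and not for Sesn1, Tbc1d7 or Eif4ebp1. The list medians were 0.013 in KO and 0.06 in WT cells.

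FOXO factors and genes known as FOXO targets showed 9 rises and 0 falls among 12 in KO cells, and 10 rises and 1 fall in WT cells, where 4.7% of all genes rose in KO and 16.4% in WT cells. In KO cells 0 were lower at an unadjusted p under 0.05 in limma. Klf2, a regulator of T cell trafficking, Ccr7, the lymph node homing receptor, and Ccng2, a cyclin of arrested cells, rose by 1.17, 1.02 and 1.13 in KO cells. In WT cells Cdkn1b, the cell cycle inhibitor p27, rose by 1.93, Ccr7 by 1.92 and Klf2 by 1.84. Bcl2l11, which encodes the death protein BIM, fell in WT cells, the only fall among these 12. The median change was 0.79 in KO cells and 1.52 in WT cells, beside -0.004 and 0.013 over all genes. Changes of Klf2, Ccr7 and Cdkn1b in these data were known when the list was drawn up, so its direction is no independent evidence. Of AKT and SGK substrates, KO cells had 1 rise and 0 falls among 8 tested, and WT cells 3 rises and 1 fall, where 8.38% of all genes changed in KO and 35% in WT cells, with medians of 0.199 and 0.371. Ndrg1, a known SGK1 substrate, rose by 1.16 ± 0.11 in KO (adjusted p = 2.26e-05) and 2.42 ± 0.11 in WT cells (adjusted p = 2.39e-09), and Ndrg2 rose by 1.58 ± 0.24 in WT cells (adjusted p = 0.000141). Beside these groups, 18S rRNA signals were higher with db-cAMP in both genotypes, as given above, and 0 of the 6 CD4 T cell markers in KO and 3 in WT cells changed, the 3 being lower.

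**Figure D4:**
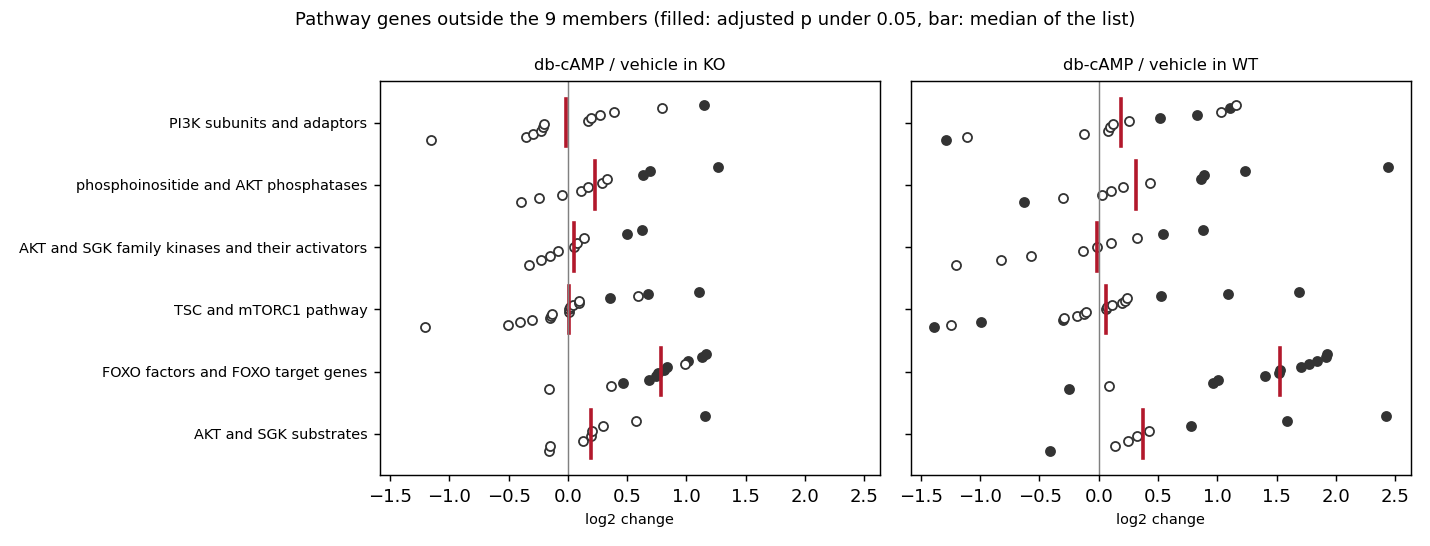
Log2 change with db-cAMP against vehicle (x axis, log2 scale) of the tested genes of 6 pathway lists in KO and in WT cells; each point is a gene, filled where its adjusted p is under 0.05, and the bar is the list's median. The FOXO list has its median at 0.785 in KO and 1.525 in WT cells, and the other medians lie between -0.015 and 0.371.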

How the data were processed

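Gene expression of mouse CD4 T cells was measured on 8 Affymetrix arrays in 4 groups of 2, grouped by sample title. The deposited values are linear probe-set intensities made with MAS5, per the submitters' processing notes, with version and settings not given in the sources used here. The middle 96% of values averaged 500 on every array, so the authors had scaled the arrays before deposit, and total mRNA per cell is not measured. Of 45101 probe sets, 64 were controls, 34945 had 1 symbol in the platform annotation, 932 several and 9160 none. Detection calls were not used here.

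Signals were transformed as log2(signal + 5.48), the added value being the 10th percentile of all signals, which understates changes of dim genes. Each gene was represented by its brightest probe set (mean of log2 values), and kept if above the array median on 2 or more arrays. Limma 3.58.1 in R 4.3.3 fitted a mean for each of the 4 groups to the 8 arrays, leaving 4 residual degrees of freedom, with eBayes and an intensity trend. Tests covered the db-cAMP effect in KO and in WT, the genotype difference with db-cAMP and with vehicle, and their interaction (5 comparisons). Adjusted p-values of genes are those of limma. Intervals are 95% intervals of the fit. The number of arrays limits precision. The fit was run on simulated data with normal noise of the spread it had itself estimated. Such data meet its assumptions, so they cannot show how it performs on these arrays.

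The 9 members, the pathway lists, the motifs and the rule for named genes were chosen with earlier results of these data known. The rule named the members, up to 3 changed genes with the largest change per list and comparison, the 3 genes most correlated with each of 3 members, Ifngr1 and Gbp2, and of these a part is given. Some list members were not analysed here. Genes outside the rule were named after their values were seen. Replicate numbers were not used as pairs in the main fit. Deviations of same-numbered arrays correlated at -0.0199 to 0.0206 between groups, which cannot show whether those samples shared a source. Plots used matplotlib 3.10.9. Promoter sequences and chromosomes come from RefSeq tables of GRCm38.p6.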

Additional observations from a re-analysis of the deposited data

Results flagged for a closer look

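The effect of db-cAMP on Pik3r1 differed between the genotypes in the test of the difference itself. The change in KO cells minus that in WT cells was -0.64 ± 0.17 on the log2 scale (limma adjusted p = 0.0236), with rises of 1.46 in KO and 2.11 in WT cells, and the higher arrays were the db-cAMP ones in both genotypes. On the other 3 Pik3r1 probe sets the difference had the same sign, at -0.73, -0.73 and -0.78, without passing. The call was lost without any 1 of 5 of the 8 arrays (adjusted p = 0.058 to 0.0996), without the intensity trend (0.154) and with the mean of the Pik3r1 probe sets (0.102).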

How the results depend on the processing

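The 45 changes of the 9 genes (5 comparisons each) were recomputed under 21 alternatives. Of 931 values, 883 stayed on their side of the threshold, 39 no longer passed, 9 newly passed and 0 reversed a call. Changes that did not pass could still change sign. The rises of Pik3r1 with db-cAMP in both genotypes and the higher Inpp4b in KO cells under db-cAMP passed in every alternative run, and Inpp4b under vehicle in all but the mean of probe sets. In WT cells 1 member in place of 2 rose with db-cAMP with log2(signal + 1), with no filter, with a filter above the median on all 8 arrays (which leaves out Irs2), after quantile normalization, without the intensity trend and with the mean of probe sets, and 1 fell, Tsc1, with the replicate block (adjusted p = 0.0438), a block the design does not call for and which changed no other call of a member. In KO cells 1 in place of 2 rose under the strict filter and without the trend. For KO against WT under vehicle, 1 in place of 2 was higher without the trend and 0 with the mean of probe sets. Under db-cAMP, 1 in place of 3 was higher after quantile normalization, with an equal 75th percentile and without the trend. For the interaction, 0 in place of 1 was lower without the trend and with the mean of probe sets. Leaving out 1 array at a time, the members higher and lower numbered 1 to 2 and 0 to 1 for db-cAMP in WT, 1 to 2 and 0 in KO, 1 to 2 and 0 to 1 for KO against WT under vehicle, 1 to 3 and 0 under db-cAMP, and 0 to 1 and 0 to 1 for the interaction. Over all genes, the calls left without the trend were 188 of 1013 for db-cAMP in KO, 251 of 1311 for KO against WT under vehicle and 261 of 1425 for the interaction. With the mean of probe sets they were 479, 780 and 694, and 2331 of 3529 for KO against WT under db-cAMP. Testing every probe set gave 6385 calls for db-cAMP in WT, in place of 4233, and 2401 and 5790 for KO against WT under vehicle and db-cAMP. Without 1 array the calls over all genes ran from 446 to 1089 for db-cAMP in KO, 617 to 1391 for KO against WT under vehicle, 3451 to 4129 for db-cAMP in WT, 2438 to 3580 for KO against WT under db-cAMP and 891 to 1336 for the interaction. Except for the filter, the cause was not tested.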

Other observations

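Between the genotypes, 29.2% of all genes differed under db-cAMP and 10.8% under vehicle. Under db-cAMP, 1 of the 12 FOXO genes was higher in KO than WT cells and 7 were lower, where 15.9% of all genes were higher and 13.3% lower. Under vehicle 1 was higher and 1 lower, where 5.06% of all genes were higher and 5.78% lower. Of the 6 CD4 T cell markers, 2 were higher and 1 lower in KO than WT cells under db-cAMP, and 0 were higher and 2 lower under vehicle. Of the 2 CD8 T cell markers 1 was lower in KO cells under each treatment, and of the 2 B cell markers tested 1 was lower under db-cAMP. The part of these marker differences was not tested. Ccr7 averaged 34880 ± 349 in KO and 76300 ± 6251 in WT cells under db-cAMP (SD, n = 2 each; log2 -1.13 ± 0.08, limma adjusted p = 1.79e-07), whereas Bcl2l11 averaged 5615 ± 503 in KO and 2572 ± 21.6 in WT cells (log2 1.122 ± 0.085, adjusted p = 6.19e-07). Bcl2l11 rose with db-cAMP by 0.46 in KO cells (adjusted p = 0.00378) and fell by 0.26 in WT cells on the log2 scale (adjusted p = 0.0325).

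Mtm1, which encodes myotubularin, a phosphatase of endosomal phosphoinositides, was lower in KO cells under both treatments. It averaged 5071 ± 484 in KO and 6609 ± 503 in WT cells with db-cAMP, and 5996 ± 302 in KO and 10240 ± 1043 in WT cells with vehicle. Rheb, the GTPase that switches mTORC1 on, averaged 7472 ± 295.5 in KO and 10870 ± 642 in WT cells under db-cAMP (log2 -0.54 ± 0.07, adjusted p = 7.69e-05). Pik3r2 was higher in KO cells under db-cAMP, at 127 ± 18.1 in KO and 54.9 ± 36 in WT cells (adjusted p = 0.0389). This difference rests on the dim WT signals given above. Ndrg1 was higher in KO cells under vehicle, by 0.43 ± 0.11 (adjusted p = 0.0235), and lower under db-cAMP, by a log2 change of -0.83 ± 0.11 (adjusted p = 8.61e-05). These genes of the lists were not recomputed under other scalings.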
